A study of Mus musculus with 16 samples.

Results

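Accessibility was examined at the loci of 6 chemokine genes, Ccl22 (gene ID 20299), Cx3cl1 (20312), Ccl17 (20295), Ccl25 (20300), Ccl20 (20297) and Xcl1 (16963), in medullary thymic epithelial cells (mTECs). Members were all 500 bp regions of the deposited ATAC-seq table that lay wholly within 1 of 4 windows in mm9 coordinates, chosen by position alone. The windows were chr8:97200000-97380000 for Ccl22, Cx3cl1 and Ccl17, chr8:4240000-4420000 for Ccl25, chr1:83020000-83210000 for Ccl20 and chr1:166770000-166960000 for Xcl1. They held 45, 32, 28 and 16 regions, 121 of the 250313 in the table. Of these, 116 passed the filter on low signal (44, 30, 27 and 15) and entered the tests. That a window holds its genes rests on the choice of the window, since no mm9 annotation was used here, and no region is assigned to a promoter, exon or intron.

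The series profiled mTECs from the thymus of 4-week-old C57BL/6 mice by ATAC-seq, which reads open chromatin from where the Tn5 transposase cuts and tags DNA. Cells were sorted as DAPI- CD45- Epcam+ UEA+ Ly51lo and divided into an MHCIIhi (mTEChi) and an MHCIIlo (mTEClo) fraction, with 60000 cells in a reaction. Both fractions were profiled from 4 genotypes, an Aire line (Aire+/+ and Aire-/-) and a Brg1 line (Brg1+/+ and Brg1-/-), with 2 libraries in each of the 8 groups. Aire is a nuclear regulator of tissue-restricted transcription in mTECs, and Brg1 is the ATPase of SWI/SNF chromatin remodelling complexes. The Brg1+/+ libraries carry the description NOCRE, the labels name no Cre driver, and a difference between the Brg1 genotypes cannot be told apart from one in the presence of Cre. Nothing in the labels ties the replicate libraries to different mice, so the p-values rest on a spread between samples that may be purely technical. Without a gene annotation of the build, the sorted cell type could not be checked against its marker genes.

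Chemokines are small secreted or membrane-bound proteins that guide cells carrying the matching receptor. In the thymus Ccl17 and Ccl22, both ligands of Ccr4, draw maturing thymocytes toward the medulla, and Ccl25, the ligand of Ccr9, acts on thymocytes and their precursors. Cx3cl1 (fractalkine) is a membrane-anchored ligand of Cx3cr1, Ccl20 is the ligand of Ccr6, and Xcl1 attracts dendritic cells that carry Xcr1. ATAC-seq reports how open the chromatin around such genes is, not how much chemokine is made. The receptor genes were not analysed here.

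The 6 genes were found in RefSeq tables of build GRCm38.p6, with 7 annotated starts. There Ccl22, Cx3cl1 and Ccl17 followed one another on chromosome 8, between Pllp and Ciapin1. Ccl25 lay between Elavl1 and Cers4, Ccl20 between Krtap28-13 and Daw1, and Xcl1 between Dpt and Tbx19. The 250 bases before 4 of the starts are printed because they show how unlike the promoters of one chemokine group are in base composition. They are on the strand of the gene, with motif matches in capitals, and no region of the mm9 table was placed on them.
Ccl25 start 1: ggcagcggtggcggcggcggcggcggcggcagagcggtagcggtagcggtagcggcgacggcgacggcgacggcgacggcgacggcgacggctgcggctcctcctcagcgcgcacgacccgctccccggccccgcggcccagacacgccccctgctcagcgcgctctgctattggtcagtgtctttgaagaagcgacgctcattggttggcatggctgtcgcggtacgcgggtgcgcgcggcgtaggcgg
Ccl25 start 2: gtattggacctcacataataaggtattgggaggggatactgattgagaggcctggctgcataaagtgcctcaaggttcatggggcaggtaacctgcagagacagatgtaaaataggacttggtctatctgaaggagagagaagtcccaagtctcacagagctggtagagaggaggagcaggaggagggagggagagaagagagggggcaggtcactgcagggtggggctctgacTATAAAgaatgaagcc
Ccl20: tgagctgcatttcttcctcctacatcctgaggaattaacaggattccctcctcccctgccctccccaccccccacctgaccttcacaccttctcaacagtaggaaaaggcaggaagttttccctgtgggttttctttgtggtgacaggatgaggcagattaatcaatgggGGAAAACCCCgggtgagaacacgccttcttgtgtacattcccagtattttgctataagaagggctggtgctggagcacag
Cx3cl1: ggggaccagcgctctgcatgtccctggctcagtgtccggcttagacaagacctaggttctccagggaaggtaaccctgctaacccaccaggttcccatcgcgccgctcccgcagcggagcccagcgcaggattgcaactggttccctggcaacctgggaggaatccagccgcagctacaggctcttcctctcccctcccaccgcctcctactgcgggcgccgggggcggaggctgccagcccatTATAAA
The first Ccl25 start followed 250 bases with 74.8% GC and 45 CpG dinucleotides, a number reached by 0.405% of 32851 promoters of this length. The second Ccl25 start followed 51.6% GC and no CpG, with TATAAA beginning 16 bases before the start. Cx3cl1 had 64.8% GC and 14 CpG, with TATAAA directly before the start. Ccl20 had 51.2% GC and 2 CpG, and a match to the NF-kB (kB) consensus on the minus strand, beginning 80 bases before the start. Promoters of Ccl22, Ccl17 and Xcl1, not printed, had 53.6%, 47.6% and 44.0% GC, where the median promoter had 52.4% GC and 6 CpG. Both strands were searched for 4 motifs. The kB consensus was found in 3.9% of all promoters, TATAAA in 12.4%, TTCNNNGAA (STAT) in 7.02% and TGANTCA (AP-1) in 6.75%. Ccl17 held 1 STAT match, TTCTTTGAA, 99 bases before its start, and none of the 7 promoters held TGANTCA. A match is a run of letters and does not show that a factor binds.

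Values are the authors' signal, whose scaling and depth are not given, so no counting error can be stated. Library medians ranged from 11.8 to 19.8 in mTEChi and from 8.51 to 13.9 in mTEClo. Replicate libraries had a Pearson r of log2(signal + 1), over all regions that passed the filter, from 0.54 to 0.816. Aire+/+ mTEChi was lowest, and its replicate 2 stood apart: its r with libraries of the same sort had a median of 0.543, against at least 0.582 for every other library.

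The chemokine windows differed in how many regions they held and in how strongly these were open. A 180 kb stretch of the genome held a median of 13 regions. The Ccl22, Cx3cl1 and Ccl17 window held 45 and the Ccl25 window 32 in this length, while 190 kb held 28 at Ccl20 and 16 at Xcl1. Neighbouring stretches could be as dense, with 38 and 48 regions on either side of the Ccl22, Cx3cl1 and Ccl17 window, and 34 and 24 beside Xcl1. The stretches beside Ccl25 and Ccl20 held fewer than these windows, with 23 and 13, and 17 and 4. The mean signal over 16 libraries had a median over regions of 22.8 in that window, 14.9 in the Ccl25 window, 22.4 in the Ccl20 window and 15.5 in the Xcl1 window, against 14.2 over all regions. Of the 121 members, 76 (62.8%) were at or above that overall median. Only the windows on chromosome 8 held regions with a mean signal above 100, namely 3 each. The widest stretch without a region measured 18.3 kb in the Ccl22, Cx3cl1 and Ccl17 window, 33.7 kb at Ccl25, 21.3 kb at Ccl20 and 51.5 kb at Xcl1.

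The strongest region of all 4 windows lay in the Ccl25 window at chr8:4324890-4325389, with a mean signal of 250.4, above 99.4% of the table. Its signal was 247 and 300.1 in Aire+/+ mTEChi, 282 and 232 in Aire-/-, 254 and 283 in Brg1+/+ and 281 and 287 in Brg1-/-. In mTEClo it was 206 and 219 in Aire+/+, 231 and 262 in Aire-/-, 237 and 200.4 in Brg1+/+ and 260 and 227 in Brg1-/-. All 16 libraries were thus high, with overlap between the sorts. The log2 difference between mTEChi and mTEClo, averaged over the 4 genotypes, was 0.23 (SE 0.09, limma adjusted p = 0.0328), but it was -0.20 (adjusted p = 0.152) once libraries were re-centred on their medians. The call was also lost, with adjusted p from 0.0578 to 0.0909, on leaving out any 1 of 8 libraries, namely replicate 2 of Aire+/+, Brg1+/+ and Brg1-/- mTEChi, replicate 1 of Aire-/- mTEChi, replicate 1 of Aire+/+ and Aire-/- mTEClo, or replicate 2 of Brg1+/+ and Brg1-/- mTEClo.

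In the Ccl22, Cx3cl1 and Ccl17 window the strongest region was chr8:97227806-97228305, with a mean signal of 183. Its signal ran from 73.8 to 283 (median 216) in mTEChi and from 126 to 206 (median 156) in mTEClo. The lowest mTEChi value belonged to Aire-/- replicate 1, whose partner library had 220. The strongest regions on chromosome 1 were weaker. At chr1:83156106-83156605 in the Ccl20 window the mean was 56.1, with 19.3 to 107 in mTEChi and 30.7 to 76.7 in mTEClo. At chr1:166948836-166949335 in the Xcl1 window it was 68.5, with 37.9 to 169 in mTEChi and 28.2 to 90.1 in mTEClo. In all 3 regions the sorts overlapped.

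Within the chemokine windows some regions were more open in mTEChi and others in mTEClo. Averaged over the 4 genotypes, 37 of 116 members were more open in mTEChi and 12 were more open in mTEClo (limma on log2(signal + 1), adjusted p under 0.05 over all regions tested). These shares, 31.9% and 10.3%, stood beside 27.1% and 10.6% of all 225281 regions tested. The median log2 difference was 0.33 over members and 0.33 over all regions. As a set the members thus moved much like the table. The calls of each window are described below, and the windows were not tested against each other.

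That balance between directions depended on scaling. Quantile normalization gave 21 higher and 23 lower members, beside 16.5% and 17.5% of all regions. Re-centring each library on its median gave 16 and 28, beside 14.5% and 20.2%, while the median over all regions went from 0.33 to -0.02 and -0.10. The share of called members that were more open in mTEChi went from 75.5% to 47.7% and 36.4%, and that of all regions from 71.9% to 48.4% and 41.8%. Under all 3 scalings, 16 of the 37 regions higher in mTEChi and all 12 regions higher in mTEClo were called in the same direction. Both alternatives moved the differences of all regions toward mTEClo, so they are a weak check on calls in that direction. How many calls of all regions held under all 3 scalings was not counted. The members, and the single windows below, thus cannot be set beside all regions in this. The higher median signal of mTEChi libraries moves with the sort, and its part in the count of higher regions was not tested.

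**Figure D1:**
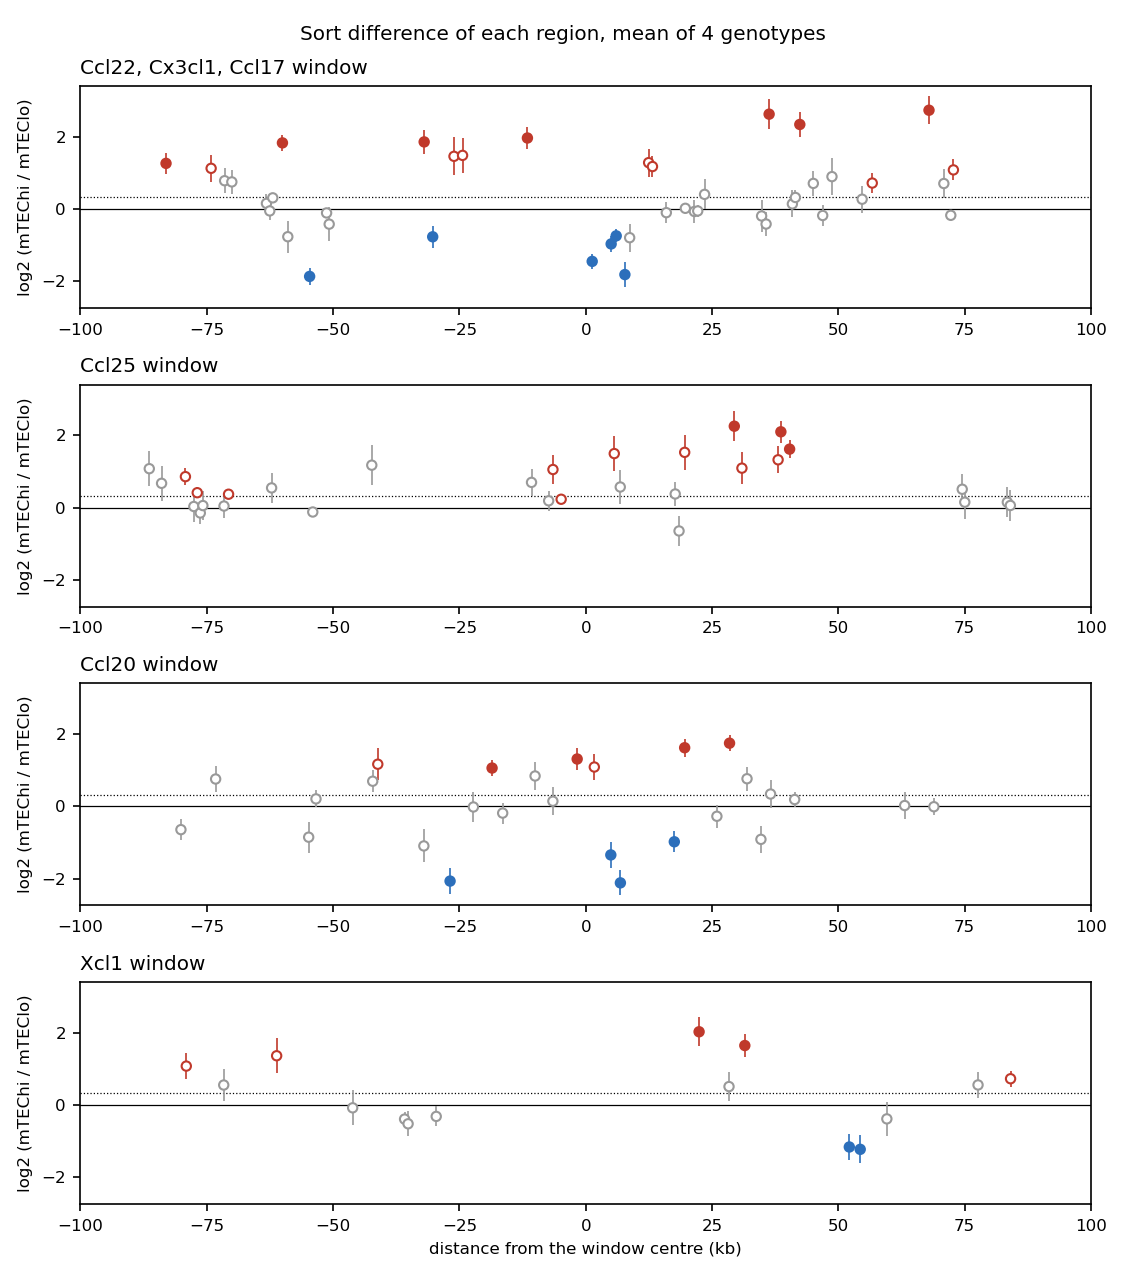
Each point is 1 tested region, placed by its distance in kb from the centre of its window, with the log2 difference between mTEChi and mTEClo (mean of 4 genotypes, bars 1 SE) on the vertical axis. Red and blue mark regions called higher in mTEChi and in mTEClo, grey those not called, filled points those called under all 3 scalings; the dotted line is the median over all regions, 0.33. Calls in both directions appear in the Ccl22, Cx3cl1 and Ccl17, Ccl20 and Xcl1 windows, and 12 in the mTEChi direction with 0 in the other appear at Ccl25.

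The Ccl22, Cx3cl1 and Ccl17 window held 14 regions called higher in mTEChi among 44 and 6 called higher in mTEClo. These were 31.8% and 13.6%, beside 27.1% and 10.6% of all regions, and the median log2 difference was 0.29. In 6 regions all 8 mTEChi libraries exceeded all 8 mTEClo libraries, and in 2 the order was the opposite. Such separation was found in 5.15% and 1.93% of all tested regions. Of the 20 calls, 7 higher and 6 lower were made under all 3 scalings.

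The largest difference of the window was at chr8:97357693-97358192. Its signal in mTEChi was 62.1 and 19.1 in Aire+/+, 28.7 and 31.7 in Aire-/-, 44.3 and 31.5 in Brg1+/+ and 24.2 and 29.3 in Brg1-/-. In mTEClo the region had 4.41 and 17.1 in Aire+/+, 5.76 and 1.39 in Aire-/-, 1.93 and 0.623 in Brg1+/+ and 2.88 and 11.4 in Brg1-/-. No mTEClo library reached any mTEChi library, although the 2 Aire+/+ replicates differed widely in both sorts. The log2 difference was 2.73 (SE 0.39, limma adjusted p = 1.52e-06). Toward the same end of the window lay the regions with the next largest differences.

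At chr8:97326049-97326548 signal ran from 14.0 to 45.6 (median 30.7) in mTEChi and from 0.399 to 9.44 (median 4.91) in mTEClo, a log2 difference of 2.63 (SE 0.41). At chr8:97332123-97332622 it ran from 18.3 to 67.2 (median 42.2) in mTEChi and from 0.943 to 13.9 (median 9.52) in mTEClo, a difference of 2.34 (SE 0.35). The sorts did not overlap at either region. Near the other end lay chr8:97229722-97230221. It had 64.6 and 97.0 in Aire+/+ mTEChi, 91.7 and 94.7 in Aire-/-, 76.5 and 127 in Brg1+/+ and 63.2 and 95.0 in Brg1-/-, against 10.5 to 31.9 (median 25.8) in mTEClo. The averaged log2 difference was 1.83 (SE 0.22, limma adjusted p = 7.09e-08), and the region was called in each of the 4 genotypes, with differences of 1.59 in Aire+/+, 1.67 in Aire-/-, 1.84 in Brg1+/+ and 2.22 in Brg1-/-. Each of these 4 calls depended on single libraries. In Aire+/+ the call was lost without mTEChi replicate 2 or either mTEClo library (limma adjusted p up to 0.147), and in Aire-/- without any 1 of its 4 libraries (up to 0.1). In Brg1+/+ it was lost without mTEChi replicate 2 (0.0914), and in Brg1-/- without mTEClo replicate 1 (0.0598). It began less than 2 kb beyond the start of the strongest region of the window, which was open in both sorts.

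Regions more open in mTEClo lay between those more open in mTEChi. The region with the largest difference in that direction, chr8:97235104-97235603, had 74.6 and 65.0 in Aire+/+ mTEClo, 76.2 and 69.2 in Aire-/-, 57.6 and 61.6 in Brg1+/+ and 39.6 and 50.1 in Brg1-/-. In mTEChi it had 12.8 and 8.77 in Aire+/+, 21.4 and 31.9 in Aire-/-, 9.07 and 9.94 in Brg1+/+ and 28.9 and 19.2 in Brg1-/-. All mTEClo libraries exceeded all mTEChi libraries, and the log2 difference was -1.87 (SE 0.24, limma adjusted p = 3.43e-07). It was called in both wild types, at -2.60 in Aire+/+ and -2.53 in Brg1+/+, and both calls held on leaving out any 1 library. In the knockouts it was -1.44 in Aire-/- and -0.89 in Brg1-/-, which missed the threshold, and neither interaction of genotype with sort was called.

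Near the middle of the window, 4 neighbouring regions within 6.97 kb (chr8:97291031-97298002) were all more open in mTEClo. The first, chr8:97291031-97291530, had 62.8 to 145 (median 96.6) in mTEClo and 22.3 to 51.6 (median 35.1) in mTEChi, without overlap. Its difference of -1.45 (SE 0.21) was called in all 4 genotypes, at -1.48 in Aire+/+, -1.25 in Aire-/-, -1.75 in Brg1+/+ and -1.31 in Brg1-/-. The Brg1+/+ call held on leaving out any 1 library. The Aire+/+ call was lost without mTEChi replicate 2 or either mTEClo library (limma adjusted p up to 0.184). The calls in Aire-/- and Brg1-/- were each lost on leaving out any 1 of 9 libraries, some of other genotypes, and fell in size to -0.66 without Aire-/- mTEClo replicate 1 and to -0.72 without Brg1-/- mTEChi replicate 2. The last, chr8:97297503-97298002, had 22.0 to 54.3 (median 37.0) in mTEClo and 2.69 to 23.7 (median 7.79) in mTEChi, a difference of -1.81 (SE 0.35). The 2 regions between them differed by -0.97 (SE 0.22) and -0.74 (SE 0.18). The averaged differences of all 4 were called under the 3 scalings and on leaving out any of the 16 libraries.

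The next 2 calls along the chromosome pointed the other way. At chr8:97302202-97302701 the log2 difference was 1.28 (SE 0.38) and at chr8:97302961-97303460 it was 1.18 (SE 0.29), and neither was called under re-centring (limma adjusted p = 0.0815 and 0.0542). The first was also lost under quantile normalization (0.0571). The first of these regions was uneven between groups: Aire+/+ mTEChi had 33.7 and 45.3 and Brg1+/+ mTEChi 30.1 and 19.98, while Aire-/- had 3.51 and 10.4 and Brg1-/- 9.86 and 10.1. Its difference between sorts was 1.73 in Aire+/+, -0.54 in Aire-/-, 3.30 in Brg1+/+ and 0.65 in Brg1-/-. Among these it was called in Brg1+/+ alone, and not without Brg1+/+ mTEChi replicate 1 or mTEClo replicate 2 (limma adjusted p up to 0.104). No contrast between genotypes was called there.

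**Figure D2:**
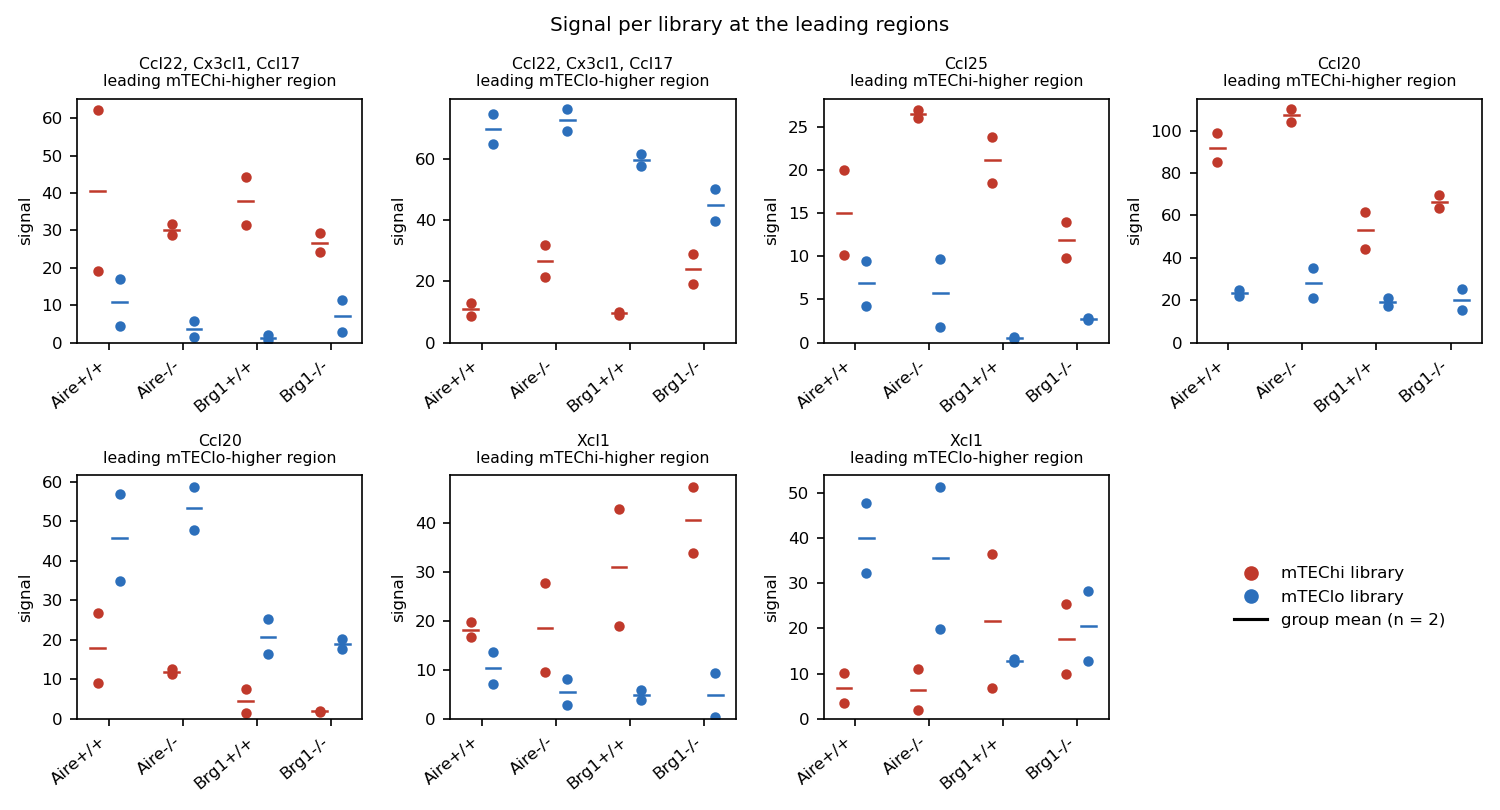
Signal on the authors' scale for each library at the region with the largest called difference in each direction and window (red mTEChi, blue mTEClo, bars the mean of 2 libraries). Red and blue do not overlap at either region of the Ccl22, Cx3cl1 and Ccl17 window, where mTEClo stayed at or below 17.1 in the first panel and mTEChi at or below 31.9 in the second; in the last panel they overlap in both Brg1 genotypes.

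The Ccl25 window was the one in which no region was called higher in mTEClo. Here 12 of 30 regions were higher in mTEChi and 27 of 30 had a positive log2 difference (90.0%), compared with 65.4% of all regions. The median difference of 0.53 fell to 0.27 under quantile normalization and to 0.10 under re-centring. Under quantile normalization the calls were 6 higher and 1 lower, beside 16.5% and 17.5% of all regions. Under re-centring they were 3 higher and 2 lower, beside 14.5% and 20.2%. Positive differences then numbered 19 and 16 of the 30 regions. Without replicate 1 of Aire-/- mTEChi, or replicate 1 of Aire-/- mTEClo, 7 regions were called.

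A run of 6 neighbouring regions within 21.3 kb (chr8:4349337-4370604) was higher in mTEChi, and it held the 3 Ccl25 regions called under every scaling. The largest difference was at chr8:4359156-4359655, a weak region. Its mTEChi signal was 19.99 and 10.1 in Aire+/+, 26.1 and 27.0 in Aire-/-, 18.6 and 23.9 in Brg1+/+ and 9.84 and 14.0 in Brg1-/-. In mTEClo it was 4.23 and 9.52 in Aire+/+, 1.80 and 9.74 in Aire-/-, 0.365 and 0.629 in Brg1+/+ and 2.86 and 2.64 in Brg1-/-. A narrow margin separated the sorts, with 9.74 as the highest mTEClo and 9.84 as the lowest mTEChi value, and the log2 difference was 2.26 (SE 0.42, limma adjusted p = 6.32e-05).

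A stronger pair closed the run. At chr8:4368375-4368874 mTEChi had 64.3 and 98.4 in Aire+/+, 166 and 95.6 in Aire-/-, 50.3 and 97.9 in Brg1+/+ and 7.46 and 54.2 in Brg1-/-, while mTEClo ran from 9.42 to 28.6 (median 13.3). A single mTEChi library, Brg1-/- replicate 1, did not exceed the mTEClo range, and with 7.46 it lay below all mTEClo libraries. The averaged log2 difference was 2.10 (SE 0.31, limma adjusted p = 2.78e-06), with calls in Aire+/+ (2.87), Aire-/- (2.56) and Brg1+/+ (2.09) but not in Brg1-/- (0.88). The Brg1 interaction at this region was -1.21 (SE 0.88, limma adjusted p = 0.828), so a smaller difference without Brg1 was not shown. The call in Aire+/+ held on leaving out any 1 library. That in Aire-/- was lost without replicate 1 of mTEChi or of mTEClo (limma adjusted p up to 0.127). The call in Brg1+/+ was lost in 6 of 24 alternatives, with adjusted p up to 0.213, among them those without mTEChi replicate 2 or either mTEClo library.

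The last region of the run, chr8:4370105-4370604, had 40.4 to 122 (median 64.2) in mTEChi and 5.89 to 61.2 (median 19.4) in mTEClo. Its averaged log2 difference was 1.62 (SE 0.25, limma adjusted p = 5.25e-06), and it was called in Aire+/+ (1.69) and Brg1+/+ (2.96). The Brg1+/+ call held on leaving out any 1 library, while that in Aire+/+ was lost without mTEChi replicate 1 or either mTEClo library (limma adjusted p up to 0.182). Beyond it the window held no region for 33.7 kb.

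The Ccl20 window combined regions of both kinds. Among 27 tested regions 6 were higher in mTEChi (22.2%) and 4 were higher in mTEClo (14.8%), beside 27.1% and 10.6% of all regions. The median log2 difference was 0.14, below that of all regions. Of these calls, 4 in each direction were made under all 3 scalings and on leaving out any library.

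The leading region was chr1:83143216-83143715. In mTEChi its signal was 98.7 and 85.3 in Aire+/+, 110.3 and 104 in Aire-/-, 44.4 and 61.5 in Brg1+/+ and 63.7 and 69.5 in Brg1-/-. In mTEClo it was 22.1 and 24.7 in Aire+/+, 21.2 and 35.1 in Aire-/-, 21.0 and 17.0 in Brg1+/+ and 25.2 and 15.2 in Brg1-/-. There was no overlap between sorts, and within mTEChi the 4 libraries of the Aire line lay above the 4 of the Brg1 line, a difference that was not tested here. The averaged log2 difference was 1.75 (SE 0.22, limma adjusted p = 1.53e-07), with calls in all 4 genotypes at 1.93 in both Aire genotypes, 1.42 in Brg1+/+ and 1.72 in Brg1-/-. The Aire+/+ call held on leaving out any 1 library. The Aire-/- call was lost without mTEClo replicate 1 (limma adjusted p = 0.0768), the Brg1+/+ call without mTEChi replicate 2 or either mTEClo library (up to 0.175), and the Brg1-/- call without either mTEChi library or mTEClo replicate 2 (up to 0.133).

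Another region without overlap, chr1:83134332-83134831, had 48.5 to 98.7 (median 75.5) in mTEChi and 9.60 to 41.2 (median 25.2) in mTEClo. Its difference was 1.62 (SE 0.25), called in both wild types at 1.85 in Aire+/+ and 1.93 in Brg1+/+. The Aire+/+ call was lost without any 1 of its 4 libraries (limma adjusted p up to 0.129). The Brg1+/+ call was lost without either mTEChi library or mTEClo replicate 2, and without the last of these the difference was 0.98 (adjusted p = 0.319). Without mTEClo replicate 1 it was 2.89. Neither call was made under re-centring. A weaker region, chr1:83113058-83113557, had 22.7 to 48.6 in mTEChi and 4.19 to 23.0 in mTEClo, with a difference of 1.31 (SE 0.31). There the lowest mTEChi library, Aire-/- replicate 2, was just below the highest mTEClo library, Brg1+/+ replicate 2.

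The largest differences of the window, in size, were toward mTEClo. At chr1:83121612-83122111 mTEClo had 34.8 and 56.9 in Aire+/+, 58.7 and 47.9 in Aire-/-, 16.3 and 25.2 in Brg1+/+ and 17.7 and 20.1 in Brg1-/-. In mTEChi it had 26.9 and 9.15 in Aire+/+, 11.4 and 12.6 in Aire-/-, 1.503 and 7.52 in Brg1+/+ and 1.85 and 1.99 in Brg1-/-. Both sorts were higher in the Aire line and the sorts overlapped over all genotypes, but within each genotype mTEClo exceeded mTEChi. The averaged log2 difference was -2.12 (SE 0.35, limma adjusted p = 1.14e-05).

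At chr1:83087902-83088401 signal ran from 23.1 to 85.7 (median 52.8) in mTEClo and from 1.51 to 30.7 (median 12.0) in mTEChi. The difference was -2.07 (SE 0.37), called in Aire+/+ (-2.56), Aire-/- (-2.67) and Brg1+/+ (-2.36). It was -0.69 in Brg1-/- and not called there. In Brg1+/+ the value rested on the 2 mTEChi libraries, with -0.53 (limma adjusted p = 0.675) without replicate 1 and -4.19 without replicate 2, and the call was also lost without either mTEClo library. In Aire+/+ it was lost without mTEChi replicate 2 or either mTEClo library (up to 0.226), and in Aire-/- without any 1 of its 4 libraries (up to 0.187). At chr1:83119717-83120216 the range was 15.9 to 50.7 in mTEClo and 0.917 to 35.1 in mTEChi, and the difference of -1.34 (SE 0.36) was called in Aire+/+ alone among single genotypes. In that genotype replicate 2 of mTEChi held the 0.917, and the value of -2.61 became -1.10 (limma adjusted p = 0.389) without it and -4.12 without mTEChi replicate 1. The call was also lost without mTEClo replicate 2. This region, chr1:83121612-83122111 and chr1:83132282-83132781 formed a run of 3 calls more open in mTEClo over 13.1 kb.

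The Xcl1 window was the sparsest, with 5 of 15 regions more open in mTEChi and 2 more open in mTEClo. These shares, 33.3% and 13.3%, stood beside 27.1% and 10.6% of all regions. In none of the Xcl1 regions did all libraries of one sort exceed all of the other. Such separation was rare in the table too, with mTEChi above in 5.15% and mTEClo above in 1.93% of tested regions. The region with the largest difference, chr1:166887188-166887687, had 16.7 and 19.7 in Aire+/+ mTEChi, 27.7 and 9.53 in Aire-/-, 18.9 and 42.9 in Brg1+/+ and 33.9 and 47.3 in Brg1-/-. In mTEClo it had 7.14 and 13.6 in Aire+/+, 8.07 and 2.95 in Aire-/-, 3.94 and 5.89 in Brg1+/+ and 9.30 and 0.422 in Brg1-/-. Each mTEChi library but 1, Aire-/- replicate 2, exceeded every mTEClo library. The log2 difference was 2.03 (SE 0.41, limma adjusted p = 0.000172).

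At chr1:166896240-166896739 signal ran from 12.9 to 58.8 (median 31.8) in mTEChi and from 2.87 to 19.3 (median 9.46) in mTEClo, a difference of 1.65 (SE 0.32). These were the 2 regions higher in mTEChi that were called under all 3 scalings. The difference of 1.36 (SE 0.49) at chr1:166803577-166804076, a region with a mean signal of only 8.05, was lost under quantile normalization (limma adjusted p = 0.108) and re-centring (0.132). It was also lost, with adjusted p from 0.0562 to 0.0934, without any 1 of 5 libraries, namely replicate 1 of Aire-/- mTEChi, replicate 2 of Brg1+/+ or Brg1-/- mTEChi, replicate 2 of Aire+/+ mTEClo and replicate 1 of Aire-/- mTEClo. The 0.73 (SE 0.23) at the strongest region of the window became 0.54 under quantile normalization (adjusted p = 0.0642) and 0.30 under re-centring (0.378). Its call was lost too, with adjusted p from 0.0507 to 0.0609, without replicate 1 of Aire+/+ mTEChi, of Brg1+/+ mTEChi or of Brg1+/+ mTEClo.

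Of the 2 regions higher in mTEClo at Xcl1, that with the larger average difference was called, among single genotypes, in the Aire line alone. At chr1:166919078-166919577 Aire+/+ had 32.2 and 47.7 in mTEClo and 3.64 and 10.1 in mTEChi, and Aire-/- had 19.9 and 51.3 in mTEClo and 10.9 and 2.00 in mTEChi. In the Brg1 line the sorts overlapped, with 13.2 and 12.5 in Brg1+/+ mTEClo against 6.80 and 36.3 in mTEChi, and 12.8 and 28.3 in Brg1-/- mTEClo against 9.84 and 25.3 in mTEChi. The log2 difference was -2.49 in Aire+/+ and -2.47 in Aire-/-, both called, and 0.30 in Brg1+/+ and -0.25 in Brg1-/-. The Aire+/+ call was lost on leaving out any 1 of 7 libraries, 4 of them of other genotypes (limma adjusted p up to 0.279). The Aire-/- call was lost without mTEChi replicate 2 or either mTEClo library, with a value of -1.47 (adjusted p = 0.378) without the first. Whether the lines differ in it was not tested here. The average of -1.23 (SE 0.39, limma adjusted p = 0.0128) rose above the threshold, to at most 0.0532, on leaving out replicate 2 of Aire-/- mTEChi, replicate 2 of Aire-/- mTEClo or replicate 1 of Brg1+/+ mTEChi. The neighbouring chr1:166916921-166917420 differed by -1.16 (SE 0.37) and lost its call (adjusted p = 0.0552) without replicate 1 of Brg1-/- mTEClo.

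Within single genotypes the calls were fewer, and most were lost on leaving out 1 library. In Aire+/+ 7 members were higher and 5 lower in mTEChi, beside 5.14% and 3.65% of all regions. Aire-/- had 7 and 8 (7.15% and 4.22% of all regions), Brg1+/+ 14 and 4 (9.21% and 3.75%), and Brg1-/- 6 and 2 (6.61% and 1.5%). Of these 53 calls, 9 held on leaving out any 1 of the 16 libraries and 44 did not. The 9 were chr1:83143216, chr8:4368375 and chr8:97235104 in Aire+/+, and chr8:4359156, chr8:4370105, chr8:97235104, chr8:97257774, chr8:97291031 and chr8:97357693 in Brg1+/+. How many single-genotype calls of all regions were lost in this way was not counted. These losses are therefore not shown to be particular to the members. Leaving out 1 library also moved the counts. The 12 calls in Aire+/+ became 5 and 4 without mTEClo replicate 1 and 2. The 15 in Aire-/- became 3 and 6 without mTEChi replicate 1 and 2, and 2 and 5 without mTEClo replicate 1 and 2. The 18 in Brg1+/+ became 10 without either mTEChi replicate and 7 without mTEClo replicate 2. The 8 in Brg1-/- became 1 without mTEChi replicate 2, 3 without mTEClo replicate 1 and 1 without mTEClo replicate 2. Of all members, 5 were called higher and 3 lower in both wild types (4.31% and 2.59%, beside 2.99% and 1.77% of all regions). Only 3 were called in all 4 genotypes (2.59%, beside 1.94% of all regions), and they are described above, at chr8:97229722, chr8:97291031 and chr1:83143216. Of the 37 regions with a higher average, 31 (83.8%) had the same sign in all 4 genotypes, as did 9 (75.0%) of the 12 lower ones, beside 87.6% and 81.5% of all regions called so.

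**Figure D3:**
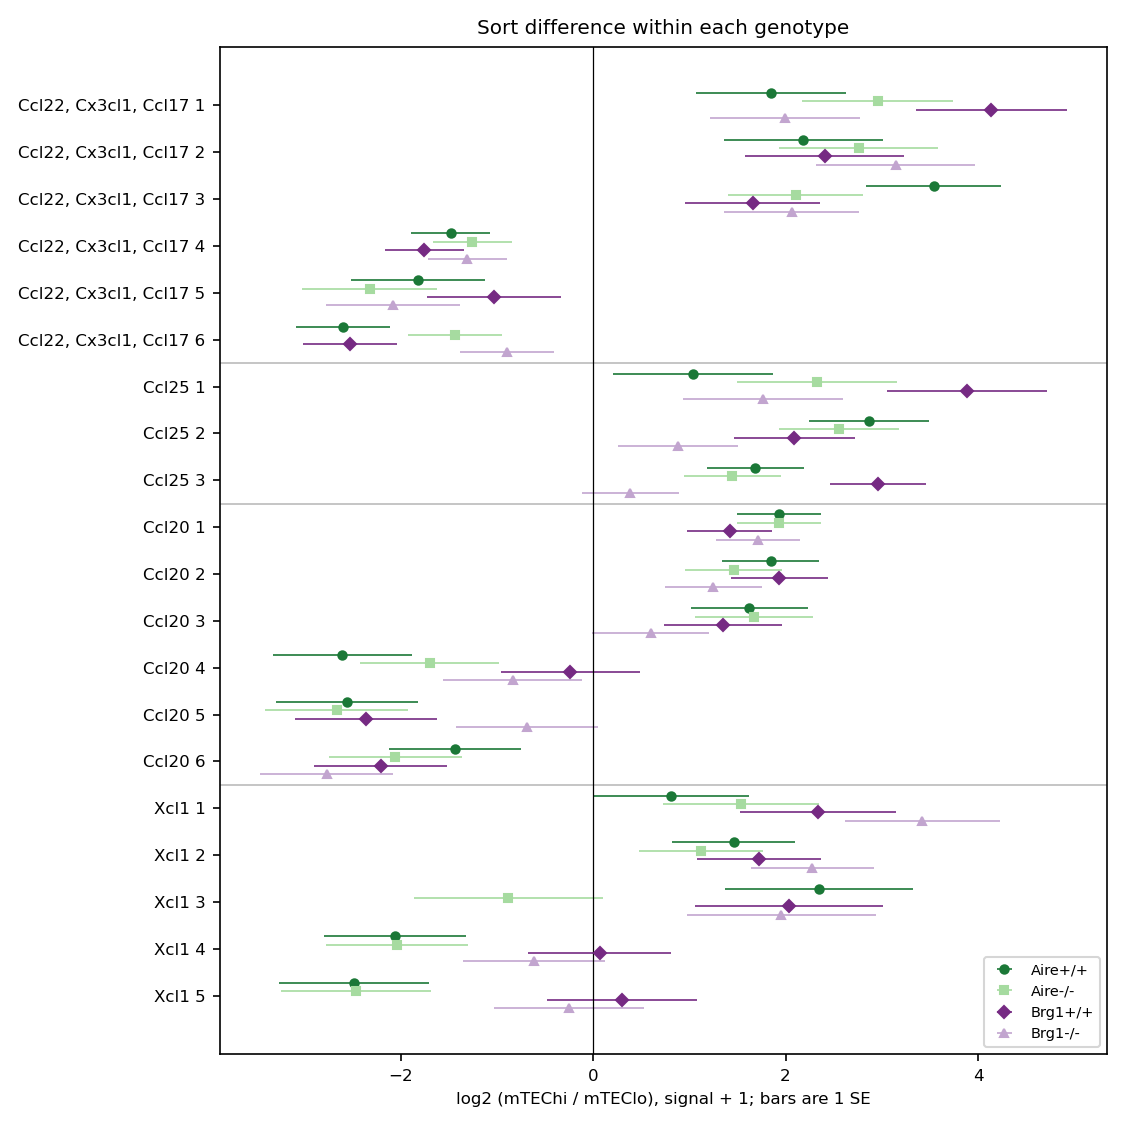
Log2 difference between mTEChi and mTEClo in each of the 4 genotypes (symbols, bars 1 SE) for the regions with the largest called average differences, numbered within a window from the most positive to the most negative average. Signs agree across genotypes in 17 of 20 regions, and the exceptions are the lower 3 rows of the Xcl1 window.

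Averaged over all regions of a window, signal was higher in mTEChi than in mTEClo in all 4 genotypes for the windows on chromosome 8, but in the Brg1 line alone for those on chromosome 1. The mean log2(signal + 1) of the Ccl22, Cx3cl1 and Ccl17 window was 4.71 in Aire+/+ mTEChi and 4.41 in mTEClo, 4.66 and 4.52 in Aire-/-, 4.63 and 4.12 in Brg1+/+, and 4.85 and 4.29 in Brg1-/-. Signal in the Ccl25 window was 4.38 and 3.97 in Aire+/+, 4.66 and 4.10 in Aire-/-, 4.30 and 3.26 in Brg1+/+, and 4.36 and 3.75 in Brg1-/-.

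In the Ccl20 window the difference of these means between mTEChi and mTEClo was -0.23 in Aire+/+ and -0.26 in Aire-/-, and 0.21 in Brg1+/+ and 0.51 in Brg1-/-. In the Xcl1 window it was -0.22, -0.39, 0.69 and 1.08 in the same order. Over all regions of the table it was 0.18, 0.12, 0.47 and 0.68, likewise larger in the Brg1 line. The difference between lines was not tested. The pooled SD between the 2 libraries of a group was 0.09 for the Ccl22, Cx3cl1 and Ccl17 window, 0.29 for Ccl25, 0.16 for Ccl20 and 0.26 for Xcl1. The mean over genotypes was 0.38, 0.65, 0.06 and 0.29 in that order of windows, against 0.36 for all regions. After re-centring it was -0.05, 0.22, -0.37 and -0.14.

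**Figure D4:**
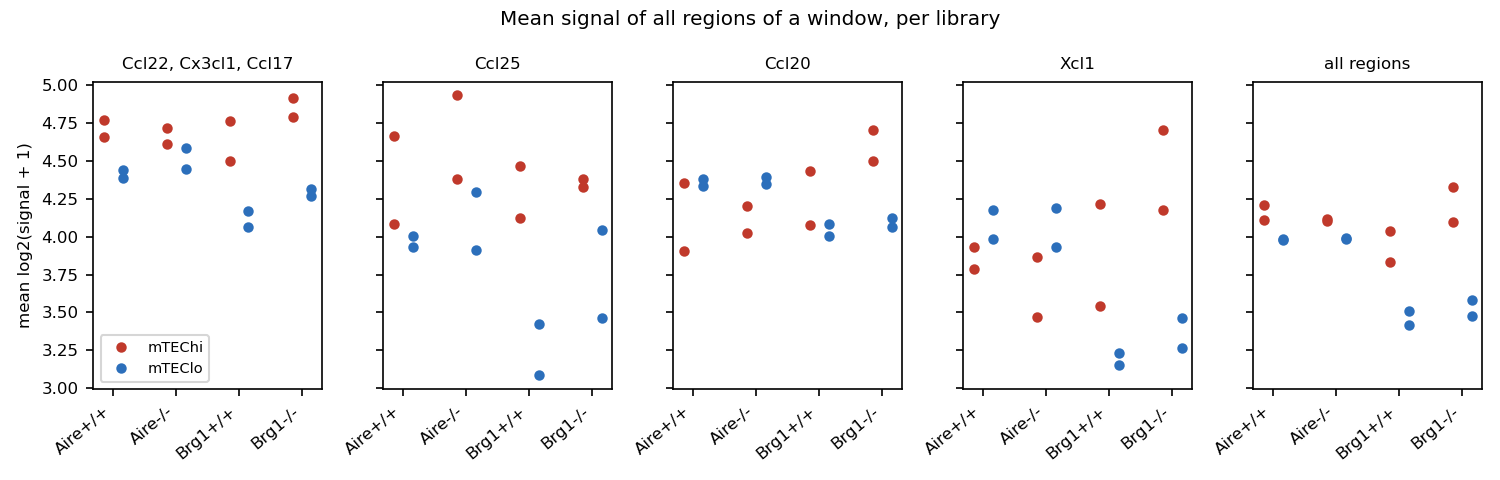
Mean log2(signal + 1) over all regions of each window, and over all regions of the table, for each library (points; red mTEChi, blue mTEClo). In the Ccl22, Cx3cl1 and Ccl17 window mTEChi lies above mTEClo in all 4 genotypes, while the Ccl20 and Xcl1 windows show negative group differences in the Aire line and positive ones in the Brg1 line.

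The surroundings of the windows did not share these patterns throughout. Over all regions tested, 27.1% were called higher in mTEChi and 10.6% lower. The stretch of the same length before the Ccl22, Cx3cl1 and Ccl17 window had 13 higher and 2 lower of 36 regions. That after it had 16 higher and 2 lower of 43. The window itself held 6 lower of 44 (13.6%), close to the share of all regions. In the stretches before and after it, 5.56% and 4.65% were lower. Beside Ccl25 there were 3 higher and 1 lower of 19, and 2 higher and 3 lower of 12. Beside Ccl20 there were 6 higher and 1 lower of 15, and none of 2. The stretch before the Xcl1 window went the other way, with 3 higher and 13 lower of 31 and a median log2 difference of -0.54, while that after it had 8 higher and 1 lower of 24. These counts were not tested against each other.

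The leading mTEChi-higher region of each window was compared with all others by Pearson r of log2(signal + 1) over the 16 libraries, as a description. The points share the division into sorts, which by itself raises r. The Ccl22, Cx3cl1 and Ccl17 leader was most like the Ccl25 leader at chr8:4359156 among members of other windows (r = 0.827). In turn the Ccl25 leader was most like chr8:97257774-97258273 (r = 0.898). The Ccl20 leader was most like chr8:97278210-97278709 (r = 0.897) and the Xcl1 leader most like chr8:97326049-97326548 (r = 0.878), so the nearest matches of 3 loci lay in the Ccl22, Cx3cl1 and Ccl17 window, which also holds the largest number of members. In the whole table the closest regions were chr11:111107532-111108031 and chr11:82668673-82669172 for the Ccl22, Cx3cl1 and Ccl17 leader (r = 0.962 and 0.961). For Ccl25 they were chr11:87575449-87575948 and chr6:31100396-31100895 (0.976 and 0.963). For Ccl20 they were chr13:51910010-51910509 and chr7:134093876-134094375 (0.98 and 0.976), and for Xcl1 chr15:66961452-66961951 and chr7:107848201-107848700 (0.941 and 0.94).

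No chemokine member was called in any comparison of a knockout with its wild type. For Aire-/- against Aire+/+, limma called 0 of 116 members in mTEChi and 0 in mTEClo, where it called 0.0209% and 0.0% of all regions. For Brg1-/- against Brg1+/+ it called 0 in each sort, beside 0.0257% in mTEChi and 0.000444% in mTEClo. Neither interaction of genotype with sort was called at a member (0.000444% of all regions for Aire, 0.0% for Brg1). At an unadjusted p under 0.05 there were 10 members for Aire in mTEChi (10.2% of all regions), 3 in mTEClo (2.5%), 10 for Brg1 in mTEChi (10.7%) and 5 in mTEClo (6.15%). The interactions had 5 for Aire (5.15%) and 7 for Brg1 (7.09%). All members together had median log2 differences of 0.03 in mTEChi and 0.04 in mTEClo for Aire, beside -0.002 and 0.0 over all regions. For Brg1 they were 0.21 and 0.16, beside 0.22 and 0.05. The SE of a single member's difference between knockout and wild type had a median of 0.70.

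**Figure D5:**
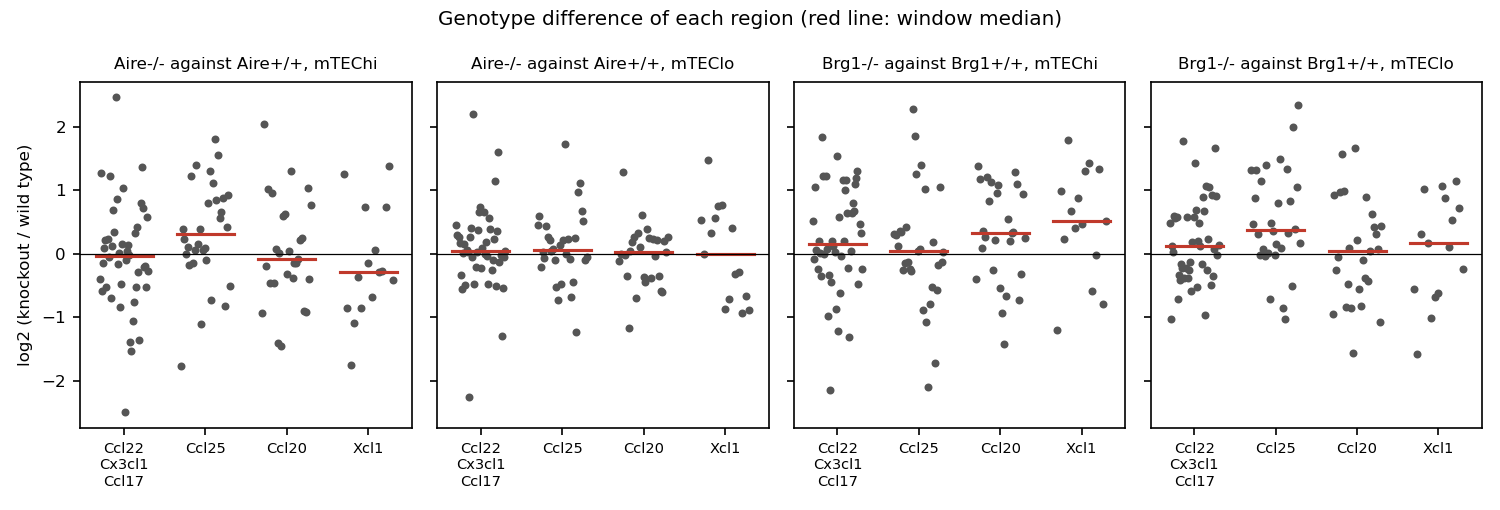
Log2 difference between knockout and wild type for each tested region of the 4 windows, in each sort; red lines are window medians and regions run in genome order within a window. The points lie on both sides of 0 in all 4 comparisons, and none passed the threshold. They run from -2.49 to 2.46 for Aire in mTEChi and from -2.14 to 2.27 for Brg1 in mTEChi. Medians over members in mTEChi and mTEClo were 0.03 and 0.04 for Aire. For Brg1 they were 0.21 and 0.16, beside 0.22 and 0.05 over all regions.

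The member with the smallest unadjusted p for Aire in mTEChi was chr8:97311921-97312420, a well-open region of the Ccl22, Cx3cl1 and Ccl17 window with a mean signal of 71.4. It had 84.3 and 102 in Aire+/+ mTEChi and 29.3 and 41.7 in Aire-/- mTEChi. The other 12 libraries, mTEClo included, had 62.7 to 99.6, so the 2 Aire-/- mTEChi libraries were the lowest of the 16. The log2 difference was -1.38 (SE 0.33) and did not pass (limma adjusted p = 0.127, between 0.0555 and 0.475 over the alternatives). In mTEClo the same region differed by -0.03 (SE 0.33), and the interaction of Aire with sort was -1.35 (SE 0.47, limma adjusted p = 0.959).

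In mTEClo the smallest p for Aire was at chr8:97238977-97239476, with 19.9 and 37.8 in Aire+/+ and 14.1 and 1.33 in Aire-/-. The difference of -2.26 (SE 0.94, limma adjusted p = 1.0) was -0.91 without Aire-/- mTEClo replicate 2, the library with the low value. For Brg1 the smallest p values fell on the strong pair at the end of the Ccl25 run. At chr8:4368375-4368874 Brg1-/- mTEChi, with 7.46 and 54.2, was below Brg1+/+ mTEChi, with 50.3 and 97.9, only in part. The log2 difference was -1.72 (SE 0.62, limma adjusted p = 0.313) and ranged from -3.07 to -0.37 over the alternatives. At chr8:4370105-4370604 Brg1-/- mTEClo had 34.2 and 34.5 where Brg1+/+ mTEClo had 10.3 and 5.89. There the difference was 2.00 (SE 0.50, limma adjusted p = 0.485), and the interaction of Brg1 with sort was -2.58 (SE 0.71, limma adjusted p = 0.453). The mTEChi values of that region were 40.4 and 50.7 in Brg1-/- and 80.2 and 57.5 in Brg1+/+. Their log2 difference of -0.58 (SE 0.50, limma adjusted p = 0.723) had the opposite sign and was not called.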

How the data were processed

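ATAC-seq was measured in 16 libraries of sorted mouse mTECs, 2 in each of 8 groups taken from the labels. The authors deposited 1 table of signal values for 250313 regions of 500 bp. Per the submitters' processing notes, Bowtie2 and MACS2 were used with build mm9 (no versions named). Region definition, Tn5 shift, duplicate removal and scaling between libraries are not given in the sources used here, and depth is unknown. Starts in region names were taken as counted from 0 and are printed counted from 1.

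Signal was analysed as log2(signal + 1), which understates changes at low signal. A filter on mean signal at the 10th percentile (7.48) kept 225281 regions. limma 3.58.1 in R 4.3.3 fitted 8 group means over all 16 libraries, with trend and robust variances, in 11 contrasts. Calls have a Benjamini-Hochberg adjusted p under 0.05 over all tested regions, two-sided. The procedure was also run on simulated data with independent noise in each region and library. These held no difference in scaling or noise between libraries, so they do not check the calls against such differences.

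The members and lists were chosen with earlier results of these data known. Named per window were the region of highest mean signal and up to 3 called regions per direction by log2 difference. The largest call shared by both wild types in each direction was also named. Where no member was called, each knockout or interaction contrast named its smallest unadjusted p. Regions given beside these (neighbours in a run, those called in all 4 genotypes) were chosen after their values were seen. Promoters and gene order came from RefSeq tables of GRCm38.p6. Alternatives were pseudocounts of 0.5 and 5, no filter or a 50th percentile filter, quantile normalization, re-centring, a replicate block, 1 line at a time, and each library left out.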

Additional observations from a re-analysis of the deposited data

How the results depend on the processing

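Counts of called members are given as higher and lower together. The count of 49 for mTEChi against mTEClo averaged over genotypes lay between 39 and 50 on leaving out each library in turn. For single genotypes the leave-one-out counts were 4 to 13 in Aire+/+ (12 in all libraries), 2 to 21 in Aire-/- (15), 7 to 22 in Brg1+/+ (18) and 1 to 10 in Brg1-/- (8). The Brg1+/+ count was 11 under quantile normalization and 11 with the Brg1 line fitted alone. The Ccl25 window's 12 calls became 7 with a filter at the 50th percentile, 7 under quantile normalization and 5 under re-centring, and 7 to 12 on leaving out a library. For Aire-/- against Aire+/+ in mTEChi, 0 to 1 members were called. The 1 call, made without Aire+/+ mTEChi replicate 1, was chr8:97263677-97264176, with a log2 difference of 4.69 (SE 1.11, limma adjusted p = 0.0355), where the remaining Aire+/+ library is listed at 0. Re-centring turned the mean over genotypes of the window signal to -0.05 for Ccl22, Cx3cl1 and Ccl17, -0.37 for Ccl20 and -0.14 for Xcl1, and left 0.22 for Ccl25. It also turned the strongest regions, chr8:97227806 to -0.12, chr8:4324890 to -0.20 and chr1:83156106 to -0.24 (-0.045 under quantile normalization). Re-centring subtracts the higher mTEChi medians, and the cause of the other shifts was not tested. Of 932 values of the named regions under alternatives, 876 kept their direction and side of the threshold, 51 lost the call, 1 gained it and 4 reversed.

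Deviations of same-numbered libraries correlated between -0.02 and 0.03. Each deviation carries the noise of 2 single libraries, so these values cannot exclude that a replicate number marks a shared mouse or day. With the replicate block the averaged contrast gave 37 higher and 12 lower members, and no contrast between genotypes gave a call. Fitting 1 line alone gives no value for the averaged contrast. A library left alone in its group was assumed to vary like the others. Read depth is unknown, so the precision of low signals rests on 2 libraries in a group.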
